A study of Mus musculus with 9 samples.

Results

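The transcripts of 10 enzymes that make or consume nicotinamide adenine dinucleotide (NAD) were examined in mouse hearts, out of 13890 genes with a symbol in the count table. They were chosen by gene symbol, with earlier results of these data known, and all 10 passed the filter on low counts that left 13364 genes tested. The study injected human HCT116 colorectal cancer cells into the spleen of NSG mice, which have no mature lymphocytes, to seed liver metastases, and asked whether blocking the activin receptor ACVR2B protects the heart and muscles of the hosts. The hearts came from male NSG mice operated on at 8 weeks of age and collected about 3 weeks later. Sham mice (S, animals 2, 3 and 5) received saline, HCT116 hosts (T, animals 11, 12 and 15) received the cells, and A + T mice (animals 20, 21 and 22) received the cells and weekly ACVR2B/Fc, a soluble receptor fusion that binds ACVR2B ligands. Each library is 1 animal, and ACVR2B/Fc-treated sham mice were not analysed here.

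An earlier comparison with the gene list given by the study raised a doubt about the label of the T libraries, and the label was not tested here. A direction given for T is therefore that of the libraries labelled T. The library totals ranged from 12392222 to 19732471 read pairs. By these totals alone, 3 counts, taken as the floor of detection, corresponded to 0.152 to 0.242 CPM (counts scaled to a common library size). The CPM of genes given below were also scaled for library composition, so that the floor on that scale differs somewhat. Summed cardiomyocyte markers lay between 42332 and 65663 CPM in all libraries, as the heart label implies, and 1 T library (animal 12) and 1 A + T library (animal 22) carried airway transcripts, at 104 and 1278 CPM, against at most 2.39 CPM in S.

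NAD carries electrons in energy metabolism and is also cut apart by signalling enzymes, so that cells must rebuild it. In the salvage route, Nampt joins nicotinamide to a sugar phosphate to give nicotinamide mononucleotide (NMN), the nicotinamide riboside kinases Nmrk1 and Nmrk2 make NMN from the riboside, and the adenylyl transferases Nmnat1 and Nmnat3 turn NMN into NAD. Nnmt methylates nicotinamide and so removes it from salvage. Sirtuins such as Sirt1 and Sirt3 use NAD to remove acyl groups from proteins, Parp1 uses it to build poly(ADP-ribose) at damaged DNA, and Cd38 hydrolyses it at membranes.

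The upstream sequences of Sirt1 and Nampt are shown, the 2 members that were higher in the libraries labelled T. They were taken from RefSeq on GRCm38.p6, each as 1 strand from 5′ to 3′, with capitals marking the motif named.
Sirt1 (chr10:63339051-63339285, minus strand; capitals mark CACGTG, the E-box): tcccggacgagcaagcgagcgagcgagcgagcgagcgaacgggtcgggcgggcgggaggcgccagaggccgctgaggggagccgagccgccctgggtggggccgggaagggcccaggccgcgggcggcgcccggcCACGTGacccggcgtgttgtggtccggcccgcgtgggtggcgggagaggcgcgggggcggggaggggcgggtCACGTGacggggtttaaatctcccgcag
Nampt (chr12:32820085-32820334, plus strand; no motif in capitals): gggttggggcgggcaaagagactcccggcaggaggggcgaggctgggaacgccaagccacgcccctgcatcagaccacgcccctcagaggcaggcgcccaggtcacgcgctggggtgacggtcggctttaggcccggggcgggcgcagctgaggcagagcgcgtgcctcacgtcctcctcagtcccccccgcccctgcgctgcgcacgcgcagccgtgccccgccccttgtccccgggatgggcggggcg

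Windows from 250 bases before to 50 bases after the start site were found for 9 of the 10 genes, in 11 windows, with none for Nnmt. They were searched on both strands for CACGTG, for TATAAA, for TTCCNGGAA (a site of Stat factors) and for TGACGTCA (a cyclic AMP response element). The E-box was present in the windows of Sirt1, at positions −115 to −110 and −43 to −38 from the start, and of Parp1, at −49 to −44, and was present in 7.15% of all 32851 windows. TATAAA was present in the window of Nmrk2, whose start site in that table lies inside the gene as bounded below, and in 13.6% of all windows. Neither of the other motifs, found in 1.15% and 1.79% of all windows, was present in the 11 windows.

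Levels were compared between the 10 genes with the deposited log2 values, which are scaled by library and by gene length. Nampt was the highest, with a mean log2 level of 6.21 over the 9 libraries, at the 94.6th percentile of the genes tested. Sirt3 (4.47), Nmnat1 (4.33) and Parp1 (3.97) followed on the same log2 scale. The ranges of Sirt3 and Nmnat1 over the libraries overlapped, at 4.21 to 4.70 and 3.93 to 4.57. Whether these genes differed within each library was not tested. Sirt1 (2.61), Nmnat3 (2.44), Nmrk2 (2.03) and Cd38 (1.97) lay between the 39.7th and the 51.2nd percentile. The range of Nmrk2 overlapped those of the other three, and Sirt1 and Nmnat3 overlapped each other, whereas Cd38 lay below Sirt1 and Nmnat3 in every library. Nmrk1 (0.52) and Nnmt (−0.22) were the lowest, and Nnmt lay at the 13.3rd percentile.

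**Figure D1:**
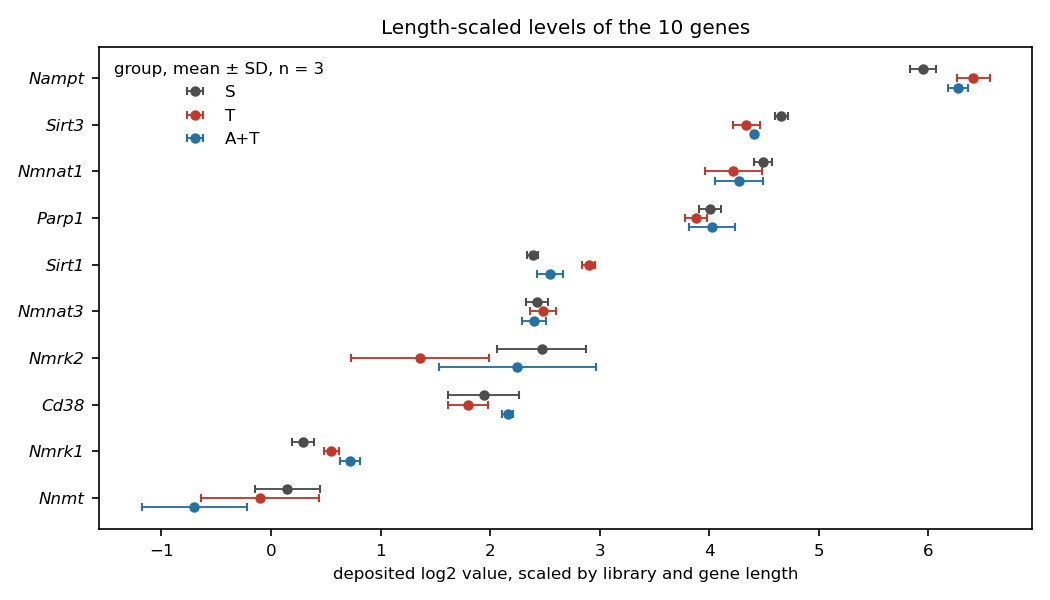
Length-scaled log2 levels of the 10 genes (x axis, deposited log2 value), ordered by their mean over 9 libraries, with points at the mean and bars at 1 SD of each group (S, T and A + T, n = 3 each). Nampt stood apart at 6.21 and Nnmt lay lowest at −0.22.

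Of the 10 genes, 2 were higher and 1 was lower in the libraries labelled T against S at an adjusted P-value under 0.05, the P-value being corrected over all genes tested by the Benjamini-Hochberg method after edgeR's quasi-likelihood test. The 3 genes were 30.0% of the list, whereas 21.2% of all genes tested passed, 10.3% higher and 11% lower. The median log2 change of all 10 members was −0.14, beside −0.004 for all genes. In A + T against T, 1 of the 10 genes passed, a lower one, beside 5.88% of all genes (3.09% higher and 2.79% lower). In A + T against S none passed by this test, beside 8.31% of all genes (4.67% higher and 3.64% lower). By DESeq2 1 gene passed there, and at an unadjusted P-value under 0.05 there were 3, beside 26.1% of all genes. T and A + T were each compared with the same S libraries, and T entered both comparisons of the hosts, so that these comparisons are not independent.

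**Figure D2:**
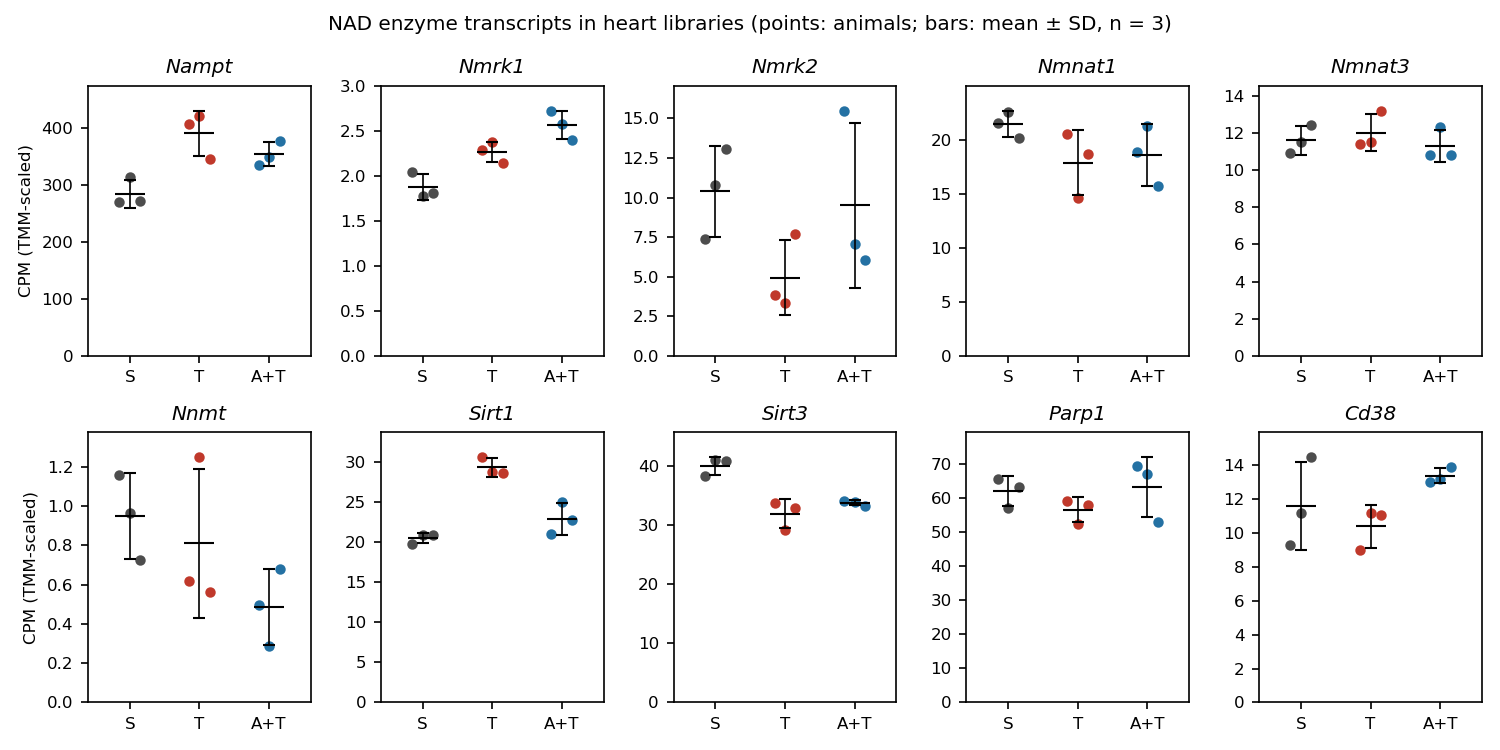
CPM scaled for library composition (y axis, from 0) of each of the 10 genes in each animal (points), with the mean and 1 SD (bars, n = 3) for S, T and A + T. The S and T animals were separate for Nampt, Nmrk1, Sirt1 and Sirt3, beside 42.6% of all genes tested. Nmrk2 was spread widely within every group.

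Nampt, the rate-limiting enzyme of salvage from nicotinamide, lies on chromosome 12 from 32820335 to 32853369 of GRCm38 and was measured at 269, 313 and 271 CPM in S. The libraries labelled T held 406, 420 and 345 CPM, and the A + T libraries held 335, 349 and 377 CPM. Every T and every A + T library was above every S library, and the T and A + T libraries overlapped. Of all genes tested, 42.6% did not overlap between T and S, and 32.4% between A + T and S. Nampt rose from a mean of 284 ± 24.8 CPM to 390 ± 39.9 CPM in T (SD, n = 3), a log2 change of 0.46 (SE, the standard error of the fit, 0.10, 1.37-fold, adjusted P = 0.0101). In A + T it was 354 ± 21.6 CPM (SD, n = 3), with a log2 difference of −0.14 from T (SE 0.10, adjusted P = 0.44) and of 0.31 from S (SE 0.10, adjusted P = 0.0801). The T against S call held without any single animal, with adjusted P-values of 0.00457 to 0.0464, and was lost when libraries were scaled by their totals alone (adjusted P = 0.111). The gene Gdap10 overlaps Nampt on the same strand in the GENCODE annotation, and how reads shared by both were counted was not tested.

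The 2 riboside kinases differed in their pattern. Nmrk1, on chromosome 19 from 18632016 to 18652428, measured 2.05, 1.78 and 1.81 CPM in S, 2.29, 2.38 and 2.15 CPM in T, and 2.72, 2.58 and 2.4 CPM in A + T. The 3 groups did not overlap, with S lowest and A + T highest, on only 23 to 44 counts per library. The highest T library (2.38 CPM) and the lowest A + T library (2.4 CPM) lay close together. Of all genes tested, 42.6% did not overlap between T and S, 25.4% between A + T and T, and 32.4% between A + T and S. How many genes separated all 3 groups was not counted. No difference passed the adjustment, with log2 changes of 0.28 (SE 0.20, adjusted P = 0.343) in T against S and 0.45 (SE 0.19, adjusted P = 0.173) in A + T against S.

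Nmrk2, the form found mainly in striated muscle, lies on chromosome 10 from 81198170 to 81202265. It measured 7.41, 10.8 and 13.1 CPM in S, 3.84, 3.33 and 7.67 CPM in T, and 15.5, 7.04 and 6.04 CPM in A + T. T animal 15 overlapped S, and A + T animal 20 was more than any other library. The mean was 10.4 ± 2.86 CPM in S and 4.95 ± 2.37 CPM in T (SD, n = 3). The log2 change of −1.11 in T against S (SE 0.41, unadjusted P = 0.021) did not pass the adjustment (adjusted P = 0.0794), nor did that of 0.99 in A + T against T (SE 0.41, unadjusted P = 0.0359, adjusted P = 0.188). Both met the looser rule of the study, which asks for a raw P-value under 0.05 with at least 1.5-fold difference, as did 14.2% and 8.11% of all genes in the 2 comparisons, and 8.91% in A + T against S. Without A + T animal 20 the second difference was 0.44. The first passed the adjustment without T animal 15 (log2 change −1.52, adjusted P = 0.0344), without A + T animal 20 (adjusted P = 0.0321) and without A + T animal 22 (adjusted P = 0.0441). With all animals kept it also passed by DESeq2 (adjusted P = 0.0238) and by the likelihood ratio test (0.0425). It passed as well with library totals alone (0.0409) and with only S and T in the fit (0.0279). The T against S difference thus passed in only 7 of the 20 alternative fits. Of the 9 fits that left out 1 animal, 3 passed, with adjusted P-values up to 0.221. The log2 change there lay between −1.52 and −0.88. Of the 11 other fits, 4 passed, with adjusted P-values up to 0.104.

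Nmnat1 and Nmnat3, the nuclear and the mitochondrial adenylyl transferase, showed no difference that passed the test in any comparison. Nmnat1, on chromosome 4 from 149467569 to 149485210, measured 20.2 to 22.6 CPM in S, 14.6 to 20.5 CPM in T and 15.7 to 21.3 CPM in A + T. Its log2 change was −0.26 in T against S (SE 0.14, adjusted P = 0.219). Nmnat3, on chromosome 9 from 98287433 to 98420533, had group means of 11.6 ± 0.782 CPM in S, 12 ± 0.998 CPM in T and 11.3 ± 0.875 CPM in A + T (SD, n = 3). Its log2 change was 0.05 in T against S (SE 0.11, adjusted P = 0.781).

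Nnmt, on chromosome 9 from 48538002 to 48607655, had few counts in every library. The counts were 21, 19 and 10 in S, 10, 21 and 6 in T, and 8, 4 and 11 in A + T. All A + T libraries lay below all S libraries in CPM, in a comparison where 32.4% of all genes did not overlap, and T overlapped both. The log2 change of −0.95 in A + T against S (SE 0.43) did not pass the adjustment (adjusted P = 0.197). The lowest library, at 4 counts, lay close to the floor of 3.

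Among the consumers of NAD, Sirt1 and Sirt3 moved in opposite directions. Sirt1, the nuclear deacetylase, lies on chromosome 10 from 63319005 to 63339035 and measured 19.7, 20.9 and 20.9 CPM in S. The libraries labelled T held 30.6, 28.7 and 28.6 CPM, and the A + T libraries held 21, 25 and 22.8 CPM. T was above every library of both other groups. The groups did not overlap for 42.6% of all genes in T against S and for 25.4% in A + T against T. Sirt1 rose from 20.5 ± 0.673 to 29.3 ± 1.14 CPM in T against S (SD, n = 3), a log2 change of 0.51 (SE 0.09, 1.43-fold, adjusted P = 0.00263), which passed in all 20 alternative fits. It fell to 22.9 ± 1.98 CPM in A + T (SD, n = 3), a log2 change of −0.35 against T (SE 0.09, 1.28-fold lower, adjusted P = 0.0407). The second call was close to the threshold. It was lost in 8 of the 9 fits that left out 1 animal, all but the one without A + T animal 21, with adjusted P-values of 0.0421 to 0.149, although the log2 change stayed between −0.42 and −0.30. A + T did not pass against S (log2 change 0.16, SE 0.09, adjusted P = 0.271).

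Sirt3, the main mitochondrial deacetylase, lies on chromosome 7 from 140863663 to 140882309 and measured 38.2, 40.9 and 40.7 CPM in S. It measured 33.7, 29.1 and 32.9 CPM in T and 34.1, 33.8 and 33.2 CPM in A + T. Every S library was above every library of both other groups. The groups did not overlap for 42.6% of all genes in T against S and for 32.4% in A + T against S. Sirt3 fell from 39.9 ± 1.54 to 31.9 ± 2.45 CPM in T against S (SD, n = 3), a log2 change of −0.32 (SE 0.08, 1.25-fold lower, adjusted P = 0.0158). The call was lost without S animal 3 (adjusted P = 0.0579), without S animal 5 (0.0558), without T animal 12 (0.0569) and with library totals alone (0.0994). In A + T, at 33.7 ± 0.443 CPM (SD, n = 3), the log2 difference was −0.24 from S (SE 0.08, adjusted P = 0.0799) and 0.08 from T (SE 0.08, adjusted P = 0.599).

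Parp1, on chromosome 1 from 180568891 to 180600999, measured 57.2 to 65.7 CPM in S, 52.4 to 59.2 CPM in T and 53.2 to 69.6 CPM in A + T. The groups overlapped in all comparisons, and the log2 change was −0.13 in T against S (SE 0.11, adjusted P = 0.414) and 0.16 in A + T against T (SE 0.11, adjusted P = 0.414). Cd38, on chromosome 5 from 43868809 to 43912374, measured 9.29, 11.2 and 14.5 CPM in S, 8.98, 11.2 and 11.1 CPM in T, and 13, 13.2 and 13.9 CPM in A + T. Every A + T library was above every T library, in a comparison where 25.4% of all genes did not overlap. The log2 change of 0.36 in A + T against T (SE 0.16, unadjusted P = 0.0496) did not pass the adjustment (adjusted P = 0.222).

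**Figure D3:**
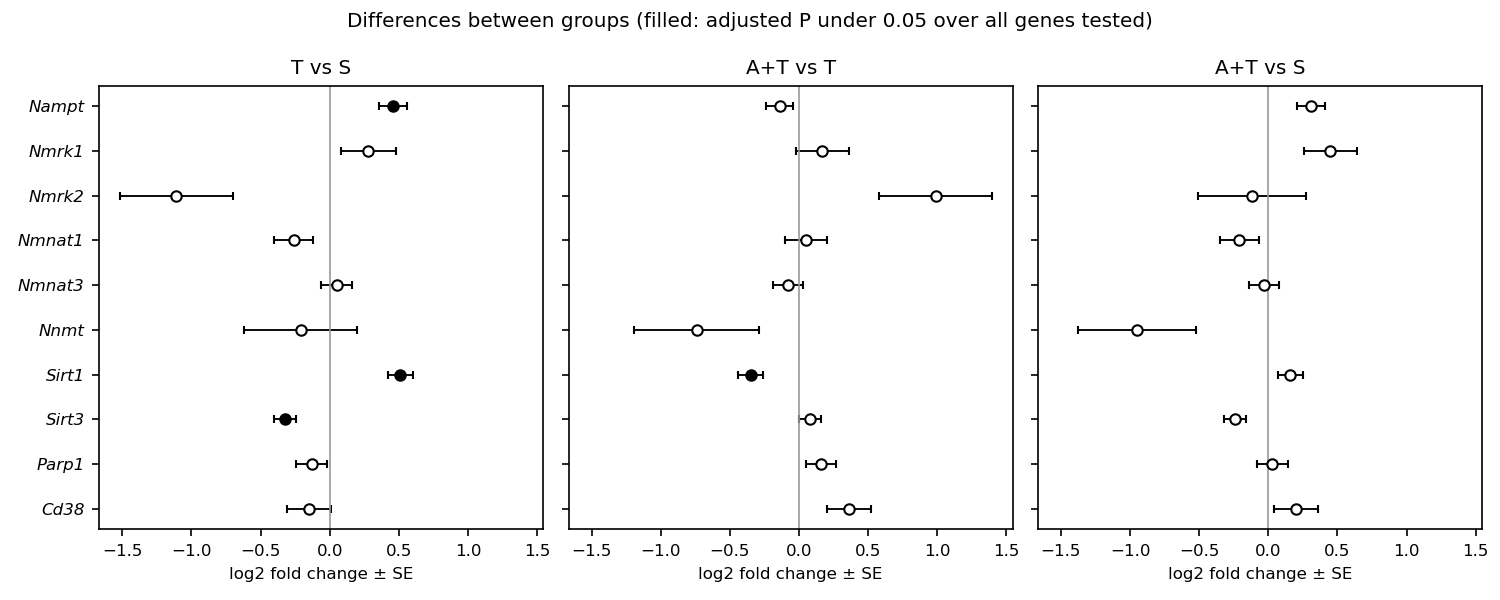
Log2 fold changes (x axis) with their standard errors of the 10 genes in T against S, A + T against T and A + T against S, filled where the adjusted P-value over all genes was under 0.05. Nampt (0.46), Sirt1 (0.51) and Sirt3 (−0.32) were filled in T against S and Sirt1 (−0.35) in A + T against T.

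The hearts also differed in the transcripts of other cell types, and in whole tissue fewer cells of a type and less RNA per cell cannot be told apart. Of 8 fibroblast markers, 8 fell in T against S, and their summed level was 1762 to 1927 CPM in S, 910 to 1047 CPM in T and 1260 to 2019 CPM in A + T. Of 7 endothelial markers, 6 fell in T against S, with sums of 1005 to 1111 CPM in S, 563 to 720 CPM in T and 742 to 908 CPM in A + T. Of 5 smooth muscle and pericyte markers, 4 fell in T against S and 2 in A + T against S, with sums of 372 to 450 CPM in S, 180 to 252 CPM in T and 230 to 321 CPM in A + T. Of 8 macrophage markers, 7 rose in A + T against S, with sums of 343 to 382 CPM in S, 326 to 425 CPM in T and 569 to 812 CPM in A + T. Of 8 cardiomyocyte markers, 3 rose and 1 fell in T against S. In A + T against T, 6 fibroblast, 5 macrophage and 1 endothelial marker rose, and 1 cardiomyocyte marker fell. No smooth muscle, pericyte or atrial marker passed there, beside 3.09% of all genes higher and 2.79% lower. Summed atrial markers were 3000 to 3084 CPM in S, 861 to 4554 CPM in T and 793 to 2055 CPM in A + T. Of 5 atrial markers, 1 fell in T against S and 0 passed in A + T against S. All 5 lay below every S library in A + T, beside 32.4% of all genes not overlapping there. How much atrium each library held was not tested. In the libraries labelled T, where the fibroblast, endothelial and smooth muscle sums were low, Nampt and Sirt1 rose and Sirt3 fell. Nampt was also above every S library in A + T. There the fibroblast sums overlapped those of S, and the endothelial and smooth muscle sums were lower than in S. Cd38, which macrophages also express, had its highest mean in A + T, where the macrophage sum was high. Its highest single library was S animal 5 (14.5 CPM), with a macrophage sum of 382 CPM. The part of these cell types in the results above was not tested.

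A further 51 symbols of genes of NAD synthesis and use were listed, with Slc25a51 also under its older name Mcart1. The 41 found in the table were tested, among them Mat2a and Ahcy, listed as neighbours of nicotinamide methylation. In T against S, 11 rose and 2 fell, 31.7% of them beside 21.2% of all genes, with a median log2 change of 0.13 beside −0.004. In A + T against T, 3 fell and none rose, 7.32% beside 5.88%, and in A + T against S, 3 rose and 2 fell, 12.2% beside 8.31%.

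Among 10 other genes of NAD synthesis and phosphorylation, 2 rose in T against S, a share below the 21.2% of all genes. Nt5e, the ectonucleotidase CD73 that cleaves phosphate from extracellular nucleotides, measured 33.2, 25.7 and 25.7 CPM in S, 73.7, 74.4 and 54.7 CPM in T, and 33.5, 28.2 and 33.5 CPM in A + T. T stood above both other groups, beside 42.6% of all genes not overlapping in T against S and 25.4% in A + T against T. The log2 change was 1.26 in T against S (SE 0.14, 2.40-fold, adjusted P = 0.000365) and −1.09 in A + T against T (SE 0.14, adjusted P = 0.00397). Both calls passed in all 20 alternative fits. Naprt, which starts NAD synthesis from nicotinic acid, rose from a mean of 14.2 ± 0.7 CPM to 21.3 ± 2.86 CPM in T (SD, n = 3, log2 change 0.58, adjusted P = 0.00422) and was 19.5 ± 0.866 CPM in A + T (SD, n = 3, log2 change 0.46 against S, adjusted P = 0.0302). The second of these calls held in 3 of the 9 fits that left out 1 animal, with adjusted P-values up to 0.11. Of 2 genes of the tryptophan route, Afmid, which hydrolyses formylkynurenine, fell in T against S (log2 change −0.61, adjusted P = 0.021), a call that held in 4 of the 9 such fits, with adjusted P-values up to 0.07, and was lost without T animal 11, T animal 12 or any S animal.

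Of 15 other genes listed with the Parp family, which include the glycohydrolase Parg, 6 rose and 1 fell in T against S. They made 46.7% beside 21.2% of all genes. Parp4, the vault-associated member, rose from 52.9 ± 8.69 to 99.3 ± 8.91 CPM (SD, n = 3), a log2 change of 0.91 (SE 0.14, adjusted P = 0.00158), and fell to 62.6 ± 8.92 CPM in A + T (SD, n = 3, log2 change −0.66 against T, adjusted P = 0.0234). The fall was lost without T animal 11 or T animal 15, with adjusted P-values up to 0.0971. Parp10 (0.56), Tnks (0.50), Parp9 (0.43) and Parp14 (0.34) rose by these log2 changes in T against S, with adjusted P-values of 0.0114, 0.0316, 0.0113 and 0.031. Parp10 and Parp9 held in all 9 fits that left out 1 animal, while Tnks held in 5 and Parp14 in 4, each with adjusted P-values up to 0.104. Parp12 rose by a log2 change of 0.32 and Tnks2 fell, at −0.26, and both were named after their values were seen. Each held in 3 of the 9 fits that left out 1 animal, with adjusted P-values up to 0.0911 for Parp12 and up to 0.109 for Tnks2.

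Of 5 other glycohydrolases and ADP-ribosyltransferases, Art1, which modifies proteins with ADP-ribose, and Art5 rose in T against S. Their log2 changes were 0.71 (adjusted P = 0.000362) and 0.97 (adjusted P = 0.000291). None of the 5 fell, so that 40.0% passed, beside 21.2% of all genes in either direction and 10.3% higher. Art1 also rose in A + T against S (log2 change 0.54, adjusted P = 0.00556). Art5 measured 9.25 ± 0.663 CPM in S, 18.1 ± 1.24 CPM in T and 17.9 ± 1.37 CPM in A + T (SD, n = 3), and rose in A + T against S as well (log2 change 0.95, adjusted P = 0.0019). Art3 was 358 ± 23 CPM in S, 402 ± 51.9 CPM in T and 258 ± 12.5 CPM in A + T (SD, n = 3), and fell in A + T against T (log2 change −0.64, adjusted P = 0.00937), a call lost only without T animal 11 among the fits that left out 1 animal (adjusted P = 0.0537). It also fell in A + T against S (log2 change −0.47, adjusted P = 0.0235), a call that held in 5 of the 9 such fits. Aox1, an oxidase that acts on methylnicotinamide, rose in T against S by a log2 change of 0.69 (adjusted P = 0.00302). None of the 5 other sirtuins passed in any comparison by edgeR's quasi-likelihood test, with 0 of them at an unadjusted P-value under 0.05 in T against S and 1 in each other comparison.

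**Figure D4:**
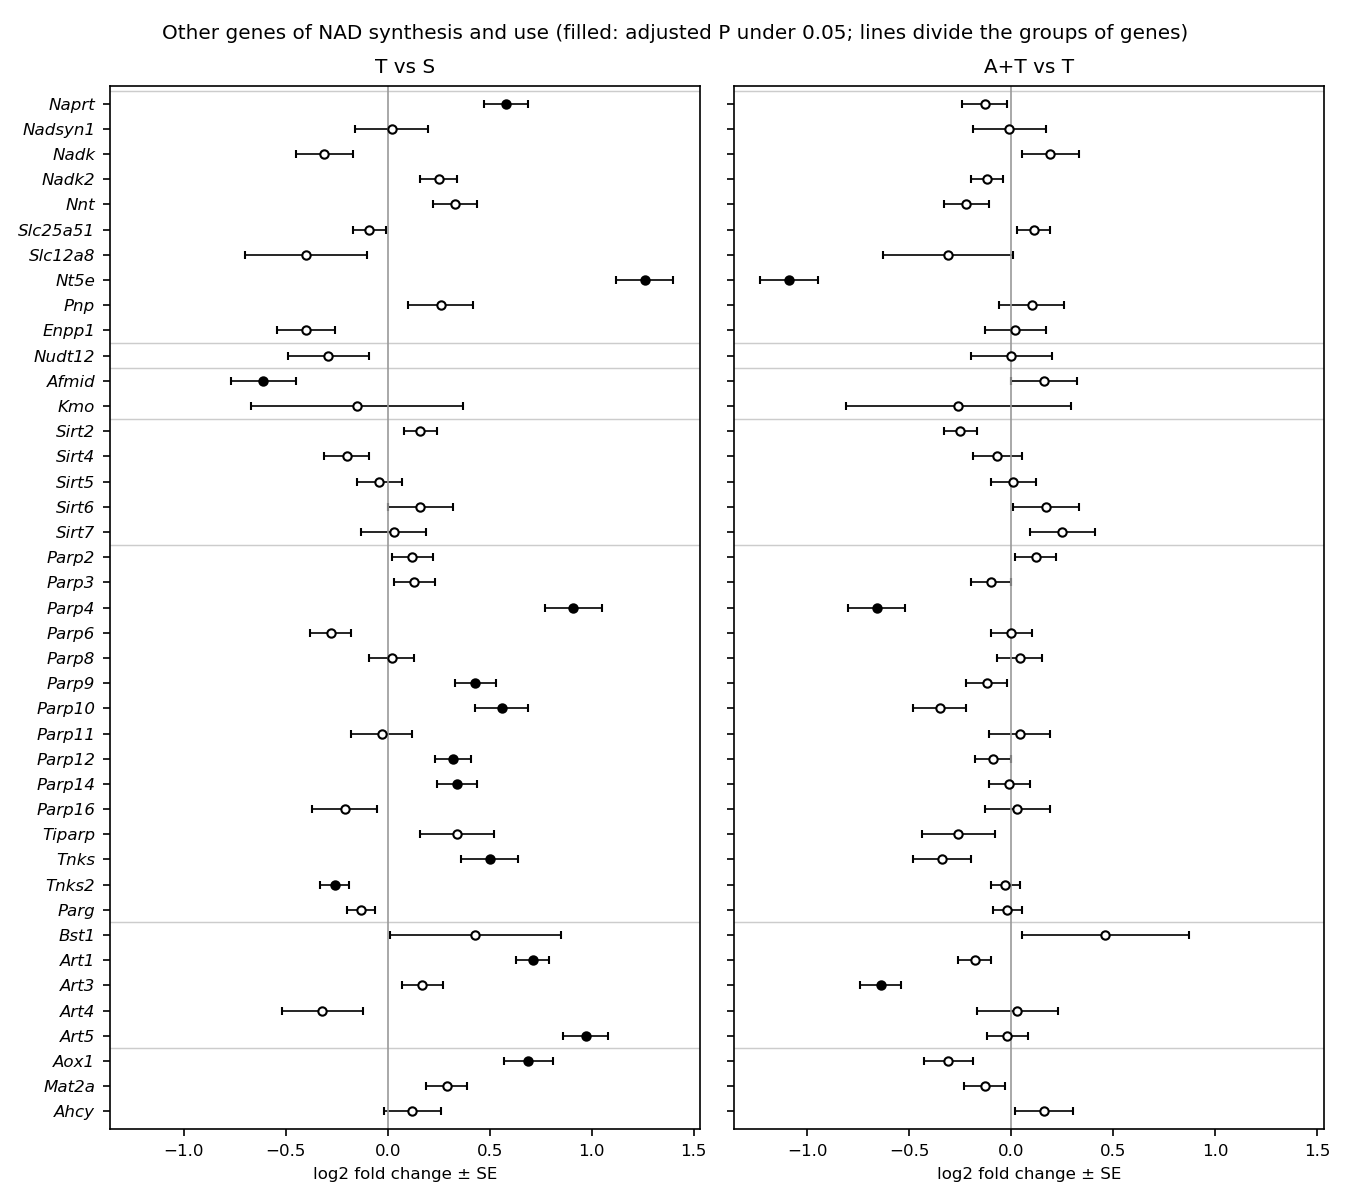
Log2 fold changes (x axis) with their standard errors of the 41 other genes listed, in T against S and A + T against T, filled where the adjusted P-value over all genes was under 0.05, with lines between the groups of genes. Nt5e and Parp4 were filled in both, on opposite sides of 0, in comparisons that share the T libraries.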

How the data were processed

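RNA of 9 hearts was sequenced as 75-base read pairs by the authors. Per the labels and the methods, reads were mapped to mm10 with STAR and the deposited counts are uniquely mapped pairs assigned to refGene genes by strand with featureCounts. The deposited log2 values differed from log2 CPM by a constant for each gene (median SD 0.0027 over 12254 genes), so they were read as scaled by library and gene length. Their formula and the versions of STAR and featureCounts are not given in the sources used here.

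Rows with no symbol or values (3443) were left out. The filter removed 526 genes that fell short of 0.5 CPM in over 4 libraries. The counts of all 9 libraries were fitted together in edgeR 4.0.16 (R 4.3.3) with TMM scaling, library sizes after the filter, and the quasi-likelihood test, called at an adjusted P-value under 0.05. Alternatives used DESeq2 1.42.0 and limma 3.58.1. Library sizes before the filter were tried as an alternative after the data had been seen. The scripts were tested on simulated data.

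The members and lists were chosen with earlier results of these data known. The 10 members were named whatever their result, other NAD genes if called in any comparison (at most 12, by size of change), and, for Nampt, Nmrk2 and Nnmt, the 3 genes with the most similar profile, of which 1 is not reported here. The floor of 3 counts covers counting error only.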

Additional observations from a re-analysis of the deposited data

How the results depend on the processing

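No paired analysis was possible because the groups share no animal numbers. Of the 3 members called in T vs. S, Sirt1 passed in all 20 alternative fits, Nampt in 19 and Sirt3 in 16, and the call of Sirt1 in A + T vs. T held in 8 of 20. The cause of these losses was not tested. The ribosomal transcript Rn45s took 4.57% to 19.6% of the counts of a library. Without it the same 3 members passed in T vs. S and 1 in A + T vs. T. With library totals alone, 1636 genes, including 8 other NAD genes, passed in T vs. S, 438 genes and 0 of the 10 members in A + T vs. T, and 555 genes with 1 other NAD gene in A + T vs. S. By the thresholds of the study, 1 of 10 members (Nmrk2) and 6 of 41 other NAD genes passed in T vs. S beside 14.2% of all genes, 1 member (Nmrk2) and 3 others in A + T vs. T beside 8.11%, and 0 members and 2 others in A + T vs. S beside 8.91%. In A + T vs. T, 1198 genes passed by DESeq2, 1195 by the likelihood ratio test, 217 with only the 2 groups compared, 513 with the deposited log2 values and 1499 at an adjusted P-value under 0.1. No member passed there with upper-quartile scaling, with only the 2 groups compared or with the deposited log2 values. In A + T vs. S, 672 genes, 1 member (Nmrk1) and 2 other NAD genes passed with the deposited log2 values, 1 member (Nampt) by DESeq2, and 2041 genes, 2 members and 9 other NAD genes at an adjusted P-value under 0.1. Library sizes before the filter, an alternative chosen after seeing the data, gave 2837 genes in T vs. S in place of 2838 and the same 3, 1 and 0 members.

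Leaving out 1 animal gave 1765 to 3786 genes, 2 to 4 members and 8 to 17 other NAD genes in T vs. S. The lowest gene count came without T animal 11, and the highest without A + T animal 22. In A + T vs. T it gave 130 (without T animal 11) to 1006 genes (without A + T animal 22), 0 to 1 members and 1 to 4 other NAD genes. In A + T vs. S it gave 269 (without S animal 2) to 1086 genes, 0 members and 2 to 6 other NAD genes. By a mean chi-square per gene between pairs of libraries, A + T animal 22 stood at 35.98 and 31.42 from animals 20 and 21, which stood at 9.127 from each other. Some differences that had not passed changed sign, with ranges of −0.01 to 0.10 for Nmnat3 and −0.29 to 0.03 for Cd38 in T vs. S, −0.08 to 0.17 for Nmnat1 in A + T vs. T, and −0.67 to 0.14 for Nmrk2, −0.10 to 0.02 for Nmnat3 and −0.05 to 0.15 for Parp1 in A + T vs. S. Over all alternative fits and threshold rules, not only those that left out 1 animal, 608 values of the 10 members kept direction and call. A further 21 lost a call, 14 gained 1 and 12 changed sign. Nnmt had no value with at least 10 counts in every library, and DESeq2 gave it no adjusted P-value in T vs. S or A + T vs. S.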

Other observations

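The genes whose log2 CPM profile over the 9 libraries lay nearest to that of 3 members, each centred on its own mean, are given as a description. For Nampt, whose profile had a root mean square of 0.22 about its own mean, they included Actr8 and Rfc1, at root mean square differences of 0.050 and 0.055. Rfc1, a subunit of the clamp loader of DNA replication, measured 54 ± 1.28 CPM in S, 77.6 ± 6 CPM in T and 69.9 ± 4.14 CPM in A + T (SD, n = 3). For Nmrk2, with a root mean square of 0.69, they were Zfp820, Lhfpl2 and Npas2, at 0.267, 0.321 and 0.324. Npas2, a circadian transcription factor, measured 12.8 ± 0.0463 CPM in S, 7.79 ± 2.18 CPM in T and 12.8 ± 4.53 CPM in A + T (SD, n = 3). For Nnmt, with a root mean square of 0.51, they were Wisp1, Klhl32 and Pthlh, at 0.171, 0.216 and 0.263, in a gene of 4 to 21 counts per library.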
